A study of Mus musculus with 6 samples.

Results

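The miR-182, miR-96 and miR-183 cluster is a set of 3 miRNA hairpins that lie close together on mouse chromosome 6, and its mature miRNAs were followed here in extracellular vesicles from muscle of young and of old mice. Its members were selected by position. Every counted locus that starts between the Mir182 hairpin and the Mir183 hairpin on chromosome 6 belongs to it, both hairpins included, which gave 6 of the 2110 loci, the 5p and the 3p arm of each hairpin. The nearest counted loci outside are far from it, miR-335-5p (252 counts in all) with 571581 bases between and miR-129-3p (1 count) with 1143234 bases between. The cluster was chosen from these data with earlier old and young values known. Its values in old and young vesicles are therefore given as a description, with no test.

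Small RNA was sequenced from exosomes, small vesicles that cells release, collected from mouse muscle. There were 2 groups, labelled young and old, with 3 libraries each and no treatment or genotype named. The sources used here do not give the ages, sex, strain, muscles or way of isolating the vesicles. They also do not state whether replicates came from separate animals, so the spread between libraries may be technical. The muscle miRNAs miR-1a, miR-133a, miR-133b, miR-206, miR-208a, miR-208b, miR-499 and miR-486a were taken as a check of the labelled tissue. They summed to 50849 to 61142 CPM (read counts scaled to a common library total) in the young and 49519 to 90419 CPM in the old libraries. The most abundant was miR-206-3p. miR-486a-5p and the Mir1a-2 copy of miR-1a-3p were at 0 at loci that overlap others, so they added nothing to these sums.

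The 3 hairpins are known to be cut from a shared primary transcript, first by Drosha in the nucleus and then by Dicer, after which a single arm of each hairpin is usually loaded into an Argonaute protein and the other is degraded. The cluster is best known from sensory cells, such as photoreceptors and the hair cells of the inner ear, and is also found in neurons, epithelial tumours and activated lymphocytes. In skeletal muscle, miR-182 is known as a repressor of Foxo3, a transcription factor that switches on genes of muscle wasting, and it has been found in vesicles released by muscle cells.

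The sequences are shown because the 3 dominant arms resemble each other, also in the seed, the bases at positions 2 to 8 from the 5′ end that pair with target transcripts. They come from RefSeq on GRCm38.p6, the assembly also called mm10, in which all 6 members were matched by coordinates on the minus strand. Capitals mark the seed.
miR-183-5p: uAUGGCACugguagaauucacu
miR-183-3p: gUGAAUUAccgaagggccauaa
miR-96-5p: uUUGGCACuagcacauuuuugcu
miR-96-3p: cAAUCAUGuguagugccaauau
miR-182-5p: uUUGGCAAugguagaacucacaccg
miR-182-3p: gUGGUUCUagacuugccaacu

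Aligned from their 5′ ends, miR-182-5p and miR-183-5p were identical at 18 of 22 positions, with the differences U2A, A8C, C17U and A22U (the base of miR-182-5p first). Their seeds matched at 5 of 7 positions. The seed of miR-96-5p differed from that of miR-182-5p only by A8C (miR-182-5p first) and from that of miR-183-5p only by U2A (miR-96-5p first), so that it matched each of them at 6 of 7 positions. Outside the seed miR-96-5p was less alike, with 12 of 23 positions shared with miR-182-5p in all and 13 of 22 with miR-183-5p. No exact seed was shared between any of the 6 members.

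The mouse miRNAs in RefSeq were searched for others with a seed of a member, although not over every chromosome, and 2 were found. They are printed here because reads from them would carry a seed of the cluster. miR-1271-5p shares the seed of miR-96-5p, and miR-3475-5p that of the rare arm miR-96-3p.
miR-1271-5p: cUUGGCACcugguaagcacuca
miR-3475-5p: aAAUCAUGuacccccacagagg
Both had 0 counts in all 6 libraries, and neither overlaps another counted locus. Among the sequences searched, all counts for the seed of miR-96-5p thus came from the Mir96 locus. The 362 loci named from GENCODE (7.834% of all counts) and the 14 loci without a name had no sequence and were not searched.

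The hairpins are printed 5′ to 3′ with both mature arms in capitals, so that the arms compared below can be placed.
Mir183: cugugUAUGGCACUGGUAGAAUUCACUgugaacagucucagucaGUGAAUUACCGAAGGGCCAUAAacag
Mir96: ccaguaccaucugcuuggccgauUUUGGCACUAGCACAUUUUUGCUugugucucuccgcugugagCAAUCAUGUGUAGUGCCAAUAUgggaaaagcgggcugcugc
Mir182: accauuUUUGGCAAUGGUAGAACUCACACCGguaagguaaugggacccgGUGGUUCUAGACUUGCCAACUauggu
Mir183 lies at chr6:30169668-30169737, Mir96 at chr6:30169446-30169551 and Mir182 at chr6:30165918-30165992. In the direction of transcription Mir183 comes first, Mir96 follows after 116 bases and Mir182 after a further 3453 bases, and the whole cluster spans 3820 bases. RefSeq places all 3 hairpins within the span of Mirc35hg, a long noncoding host gene at chr6:30158640-30174125.

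The libraries held 904892 to 1706396 counts over all loci, and the cluster received 5745 to 11354 of them, 51087 in all or 0.608% of all counts. Old replicate 1 was the shallowest library, and each log2 fold change of a member is also given without it. In old replicate 1 the most abundant locus, miR-21a-5p, held 320489 of 904892 counts. It held 694406 of 1417733 in old replicate 2 and 753531 of 1459826 in young replicate 1. The place of old replicate 1 beside the other libraries can therefore depend on how the libraries are scaled. In bulk vesicle RNA, fewer vesicles from a given cell and fewer copies per vesicle cannot be told apart.

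Each dominant 5p arm was among the 64 most abundant of the 2110 loci. miR-182-5p (MIMAT0000211, chr6:30165962-30165986) was the most abundant member and ranked 42 by total counts. miR-183-5p (MIMAT0000212, chr6:30169711-30169732) ranked 51, and miR-96-5p (MIMAT0000541, chr6:30169506-30169528) ranked 64. Over all libraries their mean levels were 2814, 1975 and 1236 CPM on library totals scaled by the trimmed mean of M-values (TMM). A read spans a whole mature miRNA, so levels were compared without dividing by length, and the order was the same per base (113, 89.8 and 53.7 CPM per base). miR-182-5p and miR-183-5p did not keep their order in every library, whereas miR-96-5p was the lowest of the 3 in all 6.

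miR-182-5p, the member with a known role on Foxo3, had 2517, 3237 and 3875 CPM in young replicates 1, 2 and 3 and 2685, 2198 and 2371 CPM in old replicates 1, 2 and 3. The old libraries lay lower on average, but old replicate 1 was above young replicate 1, so the groups overlapped on this scale. Young libraries averaged 3210 ± 679 CPM and old ones 2418 ± 247 CPM (SD, n = 3 each). The log2 fold change of old over young was -0.41 ± 0.18 (SE), or 0.753 times the young level. Leaving out young replicate 3, the highest library, gave -0.26, leaving out young replicate 1 gave -0.59, and leaving out old replicate 1 gave -0.47.

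miR-183-5p, the first miRNA of the transcript, had 2811, 2007 and 2056 CPM in the young and 2080, 1243 and 1653 CPM in the old libraries. Young replicate 1 was the highest of all libraries and old replicate 2 the lowest, and the groups overlapped on this scale through old replicate 1. The means were 2292 ± 451 and 1659 ± 419 CPM (SD, n = 3 each), a log2 fold change of -0.47 ± 0.20 (SE). Leaving out old replicate 1 gave -0.65, and leaving out old replicate 2 gave -0.30.

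miR-96-5p, which is known for its role in hair cells, where mutations of its seed cause hearing loss, had 1299, 1327 and 1321 CPM in the young libraries and 1019, 1083 and 1368 CPM in the old ones. The young libraries lay within a narrow range, and old replicate 3 stood above all of them. The means were 1316 ± 14.9 and 1157 ± 186 CPM (SD, n = 3 each), and the log2 fold change of -0.19 ± 0.17 (SE) was close to its error. Leaving out old replicate 1 gave -0.09, and leaving out old replicate 3 gave -0.33.

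Summed over its 6 loci, the cluster had 6676, 6606 and 7283 CPM in the young and 5793, 4548 and 5413 CPM in the old libraries. Here the groups did not overlap, although those of each 5p arm did. The means were 6855 ± 372 and 5251 ± 638 CPM (SD, n = 3 each), a log2 fold change of -0.39 ± 0.16 (SE), or 0.765 times the young level. As an unscaled share of library counts the cluster made up 0.663%, 0.643% and 0.745% in young replicates 1, 2 and 3, and 0.635%, 0.448% and 0.504% in old replicates 1, 2 and 3. These groups did not overlap either, with old replicate 1 just below young replicate 2. Without old replicate 1 the log2 fold change of the sum was -0.44.

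**Figure D1:**
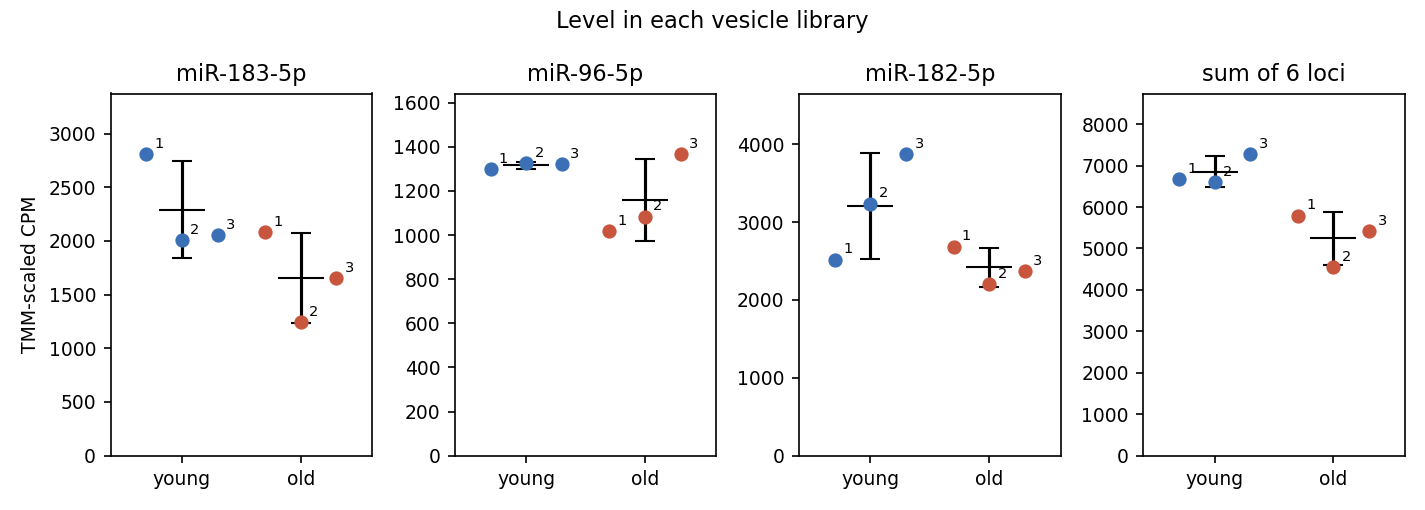
TMM-scaled CPM (vertical axes, starting at 0) of miR-183-5p, miR-96-5p, miR-182-5p and the sum of the 6 loci in young and old libraries. Points are libraries numbered by replicate, and bars are the mean ± SD of 3. On this scale the groups overlap for each single miRNA, while the 3 old libraries of the sum (4548 to 5793 CPM) lie below the 3 young ones (6606 to 7283 CPM).

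Read against all loci, a negative value was common. Of the 347 loci that passed a filter on low counts, 165 or 47.6% had a log2 fold change below 0, and the median was 0.04. All 4 members that passed the filter, the 5p arms and miR-183-3p, were below 0. In 45 of the 347 loci, or 13.0%, every old library lay below every young one, and among the 4 members this held for miR-183-3p alone. edgeR's quasi-likelihood test called 3 loci lower in old (0.865%) and 12 higher (3.46%) at an adjusted p under 0.05. With library totals that leave out the most abundant locus, miR-21a-5p, in place of TMM, the same test called 25 lower and 13 higher. Nothing about the cluster is read from these shares, since it was chosen with these values known. Ordered from the most negative value, miR-183-5p, miR-182-5p and miR-96-5p stood at ranks 51, 62 and 107 of 347.

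**Figure D2:**
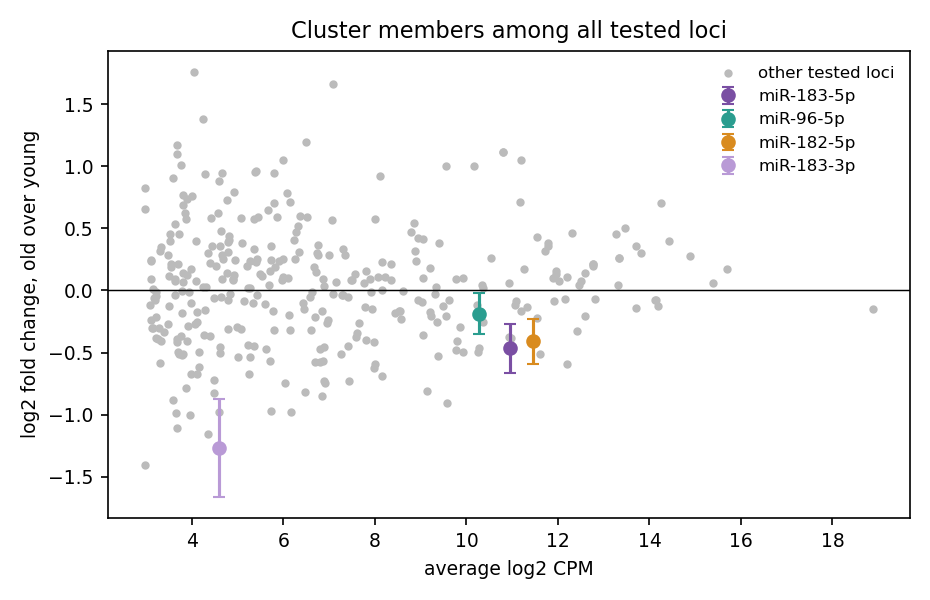
Log2 fold change of old over young (vertical axis) against average log2 CPM (horizontal axis) for the 347 tested loci. Grey points are other loci, and coloured points are members with bars of ± 1 SE. The 3 5p arms lie at -0.47 to -0.19, and miR-183-3p lies at -1.27 among loci of low abundance.

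The 3 miRNAs did not stand in a fixed ratio from library to library. The ratio of miR-182-5p to miR-183-5p counts was 0.895, 1.61 and 1.88 in young replicates 1, 2 and 3 and 1.29, 1.77 and 1.43 in old replicates 1, 2 and 3. Young replicate 1 was the only library with more miR-183-5p than miR-182-5p. Young libraries averaged a ratio of 1.46 ± 0.511 and old ones 1.5 ± 0.245 (SD, n = 3 each), and these means differed by far less than the spread between libraries.

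As a share of cluster counts, miR-182-5p made up 37.7% to 53.2% in young and 43.8% to 48.3% in old libraries. miR-183-5p made up 28.2% to 42.1% in young and 27.3% to 35.9% in old. The share of miR-96-5p was 18.1% to 20.1% in young and 17.6% to 25.3% in old, with old replicate 1 lowest and old replicate 3 highest. The composition of the cluster thus overlapped between the groups for all 3.

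**Figure D3:**
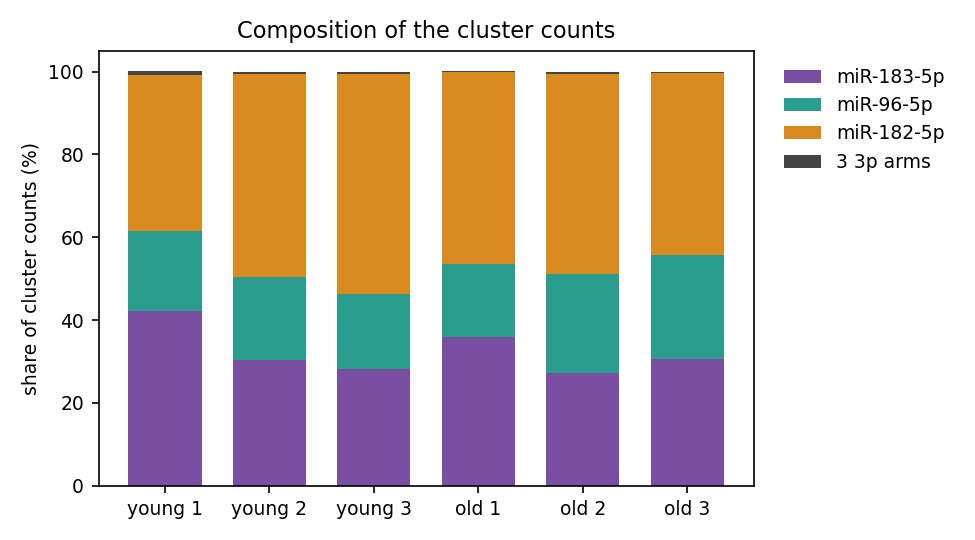
Share of cluster counts in percent (vertical axis) for each of the 6 libraries (horizontal axis), stacked by mature miRNA. miR-183-5p takes its largest share (42.1%) and miR-182-5p its smallest (37.7%) in young replicate 1, and the 3 3p arms together form a thin line at the top.

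The spread between replicates differed as well. Pooled over both groups, the SD of log2 CPM within a group was 0.33 for miR-183-5p, 0.24 for miR-182-5p and 0.16 for miR-96-5p. Among the 66 tested loci with a mean of at least 1000 CPM the median of this SD was 0.22. Of these loci, 49 had a smaller SD than miR-183-5p, 36 a smaller one than miR-182-5p and 21 a smaller one than miR-96-5p.

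The loci outside the cluster most like miR-182-5p across the 6 libraries were sought by the root mean square distance of log2 CPM centred on each locus. The 5 closest were miR-470-5p (distance 0.10), miR-674-5p (0.15), miR-503-5p (0.16), miR-140-3p (0.16) and miR-181d-5p (0.17), where the median of all 343 loci outside the cluster was 0.43. All 5 share with miR-182-5p the 6 libraries and their depth. miR-470-5p, from a chromosome X cluster, had 35.8, 43.3 and 44.9 CPM in the young and 36.3, 26.5 and 29.5 CPM in the old libraries, so that the 6 libraries stand in the same order as for miR-182-5p. Among the 346 other tested loci miR-96-5p was the 34th closest and miR-183-5p the 105th, so that many loci elsewhere in the genome lay closer to miR-182-5p than the miRNAs of its own transcript.

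The range of level and of log2 fold change within the cluster was set beside that of other groups of hairpins, as a description only. Across the table, 11 groups of at least 3 tested hairpins stood on a single strand with gaps of at most 10000 bases, counting the most abundant arm of each hairpin and each mature miRNA once. In the miR-182, miR-96 and miR-183 cluster the most abundant arm was 2.28 times the least abundant, and the log2 fold changes spanned 0.28. Both were the second narrowest of the 11 groups, after the let-7d, let-7f-1 and let-7a-1 group (1.79 times and 0.22). The groups held 3 to 12 hairpins, and a range tends to widen with the number of hairpins, so groups of unlike size are not strictly comparable. They also differed in level, with arms up to 287 times apart in the miR-500 group, and low counts make a log2 fold change less exact. The span of 0.28 was not far above the SEs of the 3 values (0.17 to 0.20). The cluster was 1 of 3 groups in which all counted hairpins had values below 0, with the miR-99b, let-7e and miR-125a group and the miR-500 group. It was chosen with its log2 fold changes known, so nothing about a shared change is read from these ranks.

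The 3p arms were rare. Across all libraries miR-182-3p (MIMAT0016995) had 43 counts, miR-96-3p (MIMAT0017021) 6 and miR-183-3p (MIMAT0004539) 195, against 23860, 10434 and 16549 for the 5p arms. The 3p arm made up 0.180% of Mir182 counts (95% exact binomial interval 0.130 to 0.242), 0.0575% of Mir96 counts (0.0211 to 0.125) and 1.16% of Mir183 counts (1.01 to 1.34). These intervals cover counting error only. Mir183 thus held a larger share of its rarer arm than the other hairpins of the cluster, and the intervals of these pooled counts do not meet. Its share was also the largest of the 3 in each of the 6 libraries, but there the intervals can meet, as those of Mir183 and Mir182 did in old replicate 3 (0.323 to 1.04 and 0.226 to 0.723) and those of Mir183 and Mir96 in old replicate 1.

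This was set beside the 124 hairpins that had a locus listed for each arm, no overlap with another locus and at least 1000 counts. In 7 of the 124 the rarer arm had no count. Copies of the same mature miRNA, such as Mir7-1 and Mir7-2, entered separately. Across the 124 hairpins the rarer arm took a median of 0.825% of the hairpin's counts, with quartiles at 0.0933% and 3.9%. From the lowest share, Mir96 ranked 24, Mir182 ranked 38 and Mir183 ranked 70. The 5p arm was the more abundant in 80 of the 124, as in all 3 hairpins of the cluster.

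**Figure D4:**
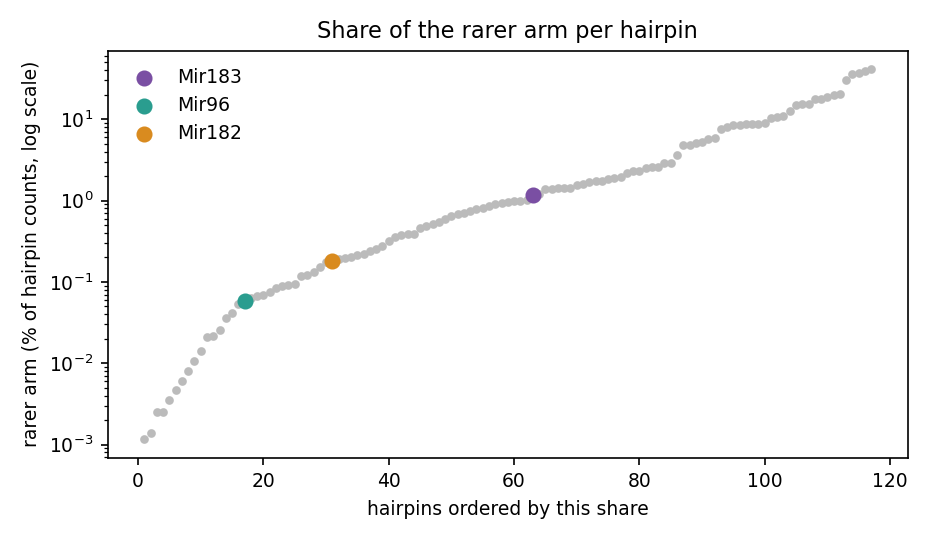
Share of the rarer arm in the counts of each hairpin (vertical axis, log scale, percent) with hairpins in order of that share (horizontal axis). The 7 of 124 hairpins with no count for the rarer arm cannot be drawn on a log scale and are left out. Mir96 (0.0575%) and Mir182 (0.180%) lie below the median of 0.825%, and Mir183 (1.16%) lies above it.

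miR-183-3p was the only 3p arm that passed the filter. It had 62, 44 and 40 counts in the young and 8, 28 and 13 counts in the old libraries, or 42.7, 26.5 and 25.7 CPM against 8.07, 20.1 and 10.1 CPM. Every old library lay below every young one. The means were 31.6 ± 9.64 and 12.7 ± 6.41 CPM (SD, n = 3 each), a log2 fold change of -1.27 ± 0.39 (SE), or 0.415 times the young level, which was the second most negative of the 347 values. Left-out libraries moved it between -1.77 (without old replicate 2) and -1.02 (without young replicate 1), and it was -1.03 without old replicate 1.

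The arm share of Mir183 did not separate the groups. It was 1.5% (interval 1.15 to 1.92), 1.30% (0.947 to 1.74) and 1.23% (0.882 to 1.67) in young replicates 1, 2 and 3. In old replicate 1 it was 0.386% (0.167 to 0.760) and in old replicate 3 it was 0.607% (0.323 to 1.04). Old replicate 2, at 1.59% (1.06 to 2.29), was the highest of all 6 libraries. Old replicates 1 and 3 therefore held less of the 3p arm relative to the 5p arm than the young libraries, and old replicate 2 did not.

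The other 3p arms were near the limit of counting. miR-182-3p had 9, 10 and 5 counts in the young and 0, 6 and 13 in the old libraries, with 13 in old replicate 3 the highest and 0 in old replicate 1 the lowest. The 0 of 2663 hairpin counts in old replicate 1 allows a share of up to 0.113%, taking 3 counts as the limit that a count of 0 allows. miR-96-3p had 3 counts in each of young replicates 2 and 3 and 0 in the other libraries. The old libraries together held 0 of 4285 Mir96 counts, which allows a share of up to 0.0700% by the same limit, and the young ones 6 of 6155 (0.0975%, interval 0.0358 to 0.212), so a difference was not detectable at this depth.

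**Figure D5:**
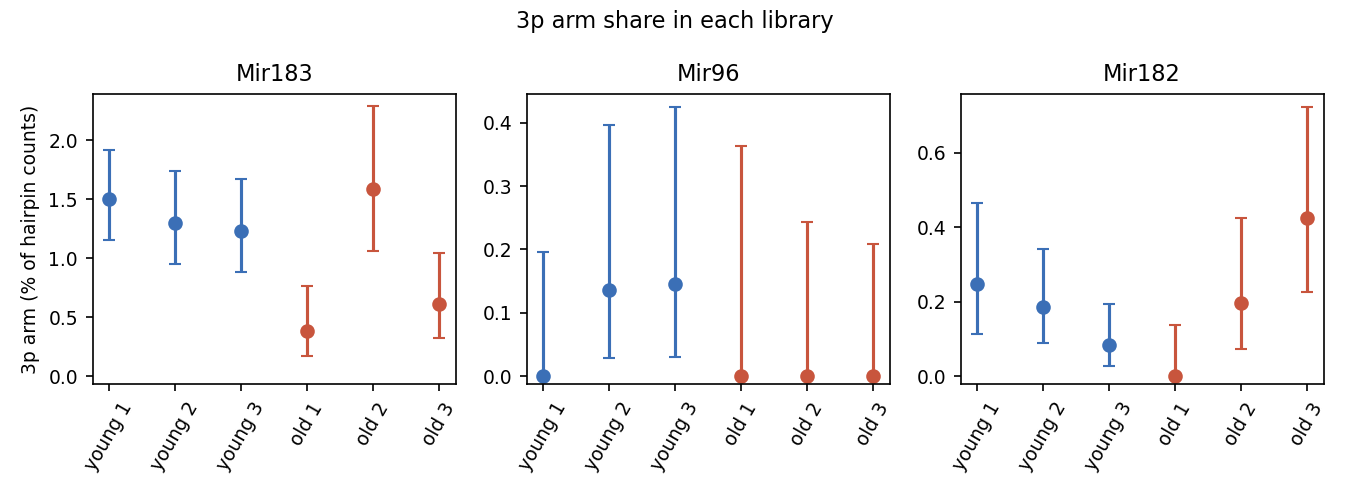
3p arm as a percentage of hairpin counts (vertical axes, with a scale of its own for each hairpin) in each library (horizontal axes), with 95% exact binomial intervals. Blue is young and red is old. For Mir183 old replicates 1 and 3 (0.386% and 0.607%) lie below the young libraries (1.23% to 1.5%) and old replicate 2 (1.59%) above them.

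The other miRNAs on a list of 18 named in work on muscle wasting, muscle mass or Foxo transcripts were read in the same test. Beside the 3 members, 15 of its loci passed the filter. edgeR's quasi-likelihood test called 1 of these 15 higher in old and 2 lower, where 3.46% and 0.865% of all loci were called, and 12 did not pass. The median log2 fold change of the 15 was 0.03, against 0.04 for all loci, and 7 of them were below 0. Without old replicate 1 the calls among these 15 were 3 higher and 2 lower, where 6.96% and 5.57% of all 359 loci tested were called.

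The muscle miRNA miR-1a-3p was read at Mir1a-1 alone, since its copy Mir1a-2 was at 0 at an overlapping locus. At Mir1a-1 miR-1a-3p averaged 1753 ± 334 CPM in young and 2876 ± 490 CPM in old libraries. This was a rise of 0.71 ± 0.18 on the log2 scale (adjusted p = 0.0285 by edgeR). miR-351-5p, of the miR-322 and miR-503 cluster, fell from 998 ± 121 CPM in the young to 532 ± 85.1 CPM in the old libraries (-0.91 ± 0.18 on the log2 scale, adjusted p = 0.00599 by edgeR). miR-155-5p, induced in activated immune cells, fell from 713 ± 111 CPM in the young to 407 ± 25.9 CPM in the old libraries (-0.81 ± 0.18 on the log2 scale, adjusted p = 0.0135 by edgeR). These calls were lost without single libraries: that of miR-1a-3p without old replicate 2 or any of the 3 young replicates (adjusted p up to 0.217 by edgeR), that of miR-351-5p without young replicate 1 or old replicate 2 (up to 0.100), and that of miR-155-5p without young replicate 3 or old replicate 2 (up to 0.100). For miR-21a-5p, the most abundant locus of the list, the value was -0.15 ± 0.20 on the same scale (adjusted p = 0.769 by edgeR), and for miR-206-3p it was 0.17 ± 0.22 (adjusted p = 0.731 by edgeR). miR-486a-5p, a miRNA abundant in muscle, was listed at 0 at a locus that overlaps another, so its amount could not be read.

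Markers of other tissues and cell types are given beside the cluster, and their part in its values was not tested. The 7 epithelial miRNAs (the miR-200 family, miR-203 and miR-205) summed to 15.6 to 17.2 CPM in young and 12.4 to 24.3 CPM in old libraries, far below the 4548 to 7283 CPM of the cluster. miR-203-3p was at 0 at an overlapping locus, and miR-200a-3p, the most abundant, had 4.67 ± 2.19 and 8.34 ± 2.28 CPM (SD, n = 3 each).

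The 8 neural and neuroendocrine miRNAs summed to 4035 to 5026 CPM in young and 3153 to 3785 CPM in old libraries, nearly all of it miR-7a-5p. Of the 6 tested loci only both copies of this miRNA had a log2 fold change below 0, and the median of the 6 was 0.22. At its copy Mir7-1 this miRNA had 2268 ± 245 and 1736 ± 221 CPM, and at Mir7-2 it had 2201 ± 267 and 1618 ± 121 CPM (log2 fold changes -0.39 ± 0.17 and -0.44 ± 0.16, adjusted p = 0.181 and 0.139 by edgeR). Of 15 neural loci 7 were at 0, all of them overlapping another locus, among them those of miR-9-5p, miR-219a-5p and miR-338-3p. Of the 6 tested, 0 were called by edgeR or by DESeq2, and 3 had an unadjusted p under 0.05, against 22.5% of all loci. The 6 tested loci include 2 copies of miR-7a-5p and 3 of miR-124a-3p, so they are not all independent. DESeq2 called 4.03% of all loci higher and 2.59% lower. Without old replicate 1 edgeR called 1 of the neural loci higher and 1 lower, where it called 6.96% and 5.57% of all loci.

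Among the 5 red blood cell miRNAs, miR-486a-5p was at 0 at an overlapping locus and added nothing to the sum. The 5 summed to 45761 to 48171 CPM in young and 46326 to 52431 CPM in old libraries. Their 5 tested loci held 0 calls by edgeR or DESeq2 and 0 with an unadjusted p under 0.05, with miR-451a at 0.06 ± 0.16 (log2 fold change, adjusted p = 0.857 by edgeR) and miR-16-5p at -0.13 ± 0.16. Of 5 tested leukocyte loci, miR-155-5p was called lower, and the other 4 were not called and had values above 0, with a median of 0.11 for the 5. The list summed to 1160 to 1372 CPM in young and 931 to 1041 CPM in old libraries, and miR-155-5p made up the largest part of this sum in every library, young and old. miR-223-3p, the next most abundant of those counted, had 255 ± 7.0 and 275 ± 37.2 CPM. miR-142a-3p was at 0 at an overlapping locus, so its part in the leukocyte sum could not be read.

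The 5 smooth muscle and fibroblast miRNAs summed to 31242 to 32794 CPM in young and 40887 to 45541 CPM in old libraries, with miR-143-3p accounting for most of the difference. Of their 7 tested loci 3 had a log2 fold change below 0, and the median was 0.20. Of the 7 edgeR called 1 higher, miR-143-3p (14954 ± 889 and 24356 ± 767 CPM, adjusted p = 0.0137, lost without old replicate 2 or any of the 3 young replicates), and 0 lower. An unadjusted p under 0.05 was found for 5 of the 7, against 22.5% of all loci, and DESeq2 called 1 higher, against 4.03%. miR-199a-3p at Mir199a-2 had 6486 ± 107 and 7431 ± 899 CPM. Both arms of miR-199a were counted at 2 copies each, so the 7 loci are not all independent. Of 6 tested muscle loci 4 were called higher, against 3.46% of all loci, and 2 were not called. These 4 were miR-1a-3p, whose call was lost in 6 of 12 alternatives, miR-499-5p (767 ± 72.1 and 1532 ± 98 CPM) and both copies of miR-133a-3p (1129 ± 82.0 and 2442 ± 493 CPM at Mir133a-2). Both copies hold the same mature miRNA with nearly equal counts (13995 and 14084), so their calls are not independent. The endothelial arms of miR-126a were at 0 at overlapping loci.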

How the data were processed

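Small RNA from vesicles was sequenced in 3 young and 3 old libraries, grouped by their titles. The authors deposited raw read counts per mature miRNA locus. Per the file headers they were made with featureCounts 2.0.6 over miRNA features with no strand, overlap or multi-mapping option. BWA and build mm10 are named in the submitters' processing notes. The sources used here do not give the BWA version or the read trimming. Loci that overlap each other therefore hold almost no counts; no member is among them. Names came from RefSeq by exact coordinates (1734 loci), otherwise from GENCODE M21 (362 loci); 14 loci kept their identifier.

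Old and young were compared with edgeR 4.0.16 (R 4.3.3) by its quasi-likelihood test on the counts as deposited, after filterByExpr (minimum count 10, minimum total 15) and TMM scaling, with Benjamini-Hochberg adjustment over 347 loci and a threshold of 0.05. SEs were derived from the coefficient and its F statistic. Log2 CPM used a prior count of 2. The members and lists were chosen with earlier results of these data known. Copies of the same mature miRNA were tested as separate loci, so loci counted in a list are not all independent. Named loci are all members, loci with a member's seed, the 5 loci most like miR-182-5p, and from each list the 2 most abundant and those called. Other scalings, no filter, DESeq2 1.42.0, summed copies, a replicate block and leaving out each library were tried, and the procedure was tested on simulated data. CPM are relative to the other counted miRNAs.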

Additional observations from a re-analysis of the deposited data

How the results depend on the processing

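The values below 0 of the summed cluster, miR-182-5p, miR-96-5p, miR-183-5p and miR-183-3p kept their sign in all 13 alternatives run for each, and each moved by less than the spread between replicates. The log2 fold change ranged from -0.51 to -0.31 for the sum, -0.59 to -0.26 for miR-182-5p, -0.33 to -0.09 for miR-96-5p, -0.65 to -0.30 for miR-183-5p and -1.77 to -1.02 for miR-183-3p. miR-182-3p and miR-96-3p did not pass the filter and have no such value. With Pearson's correlation as the measure of likeness, 3 of the 5 loci most like miR-182-5p stayed among the 5.

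Counts of called loci moved more. Against 12 higher and 3 lower, DESeq2 called 9 lower, no filter 5 lower and summed copies 5 lower. Library totals without the most abundant locus gave 25 lower, and 13 calls in the fixed lists against 7. Leaving out each library in turn gave 5 to 25 higher, 0 to 20 lower and 3 to 14 list calls. The highest counts came without old replicate 1 (25 higher, 20 lower, 14 in lists), and without old replicate 3 there were 12 lower. Without old replicate 2 edgeR called 0 lower, while 23 lower loci had an unadjusted p under 0.05, and 5 higher. Without young replicate 1, 2 or 3 there were 5, 5 and 7 higher and 1, 3 and 1 lower. The cause was not tested. With the replicate block there were 5 higher, 1 lower and 4 list calls, and miR-1a-3p, miR-155-5p and miR-143-3p were no longer called. On library totals with no scaling factor miR-1a-3p was not called either. Totals without the most abundant locus moved the median log2 fold change of all loci from 0.04 to -0.06. Deviations of same-numbered libraries correlated at -0.134, 0.0238 and -0.146 over loci, and no library correlated best with its own number. These deviations were taken within groups of 3, so they cannot settle whether equal numbers mark a pair. Depth limits the 3p arms, of which miR-96-3p had 6 counts in all.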
